A study of Mus musculus with 7 samples.

Results

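The gelsolin family is a group of calcium-regulated proteins that cut actin filaments, cap their fast-growing ends or hold filaments in bundles. Its 8 mouse genes, Gsn, Capg, Flii, Svil, Scin, Vil1, Avil and Vill, were read in cancer-associated fibroblasts (CAFs) sorted from mouse pancreatic tumors. They were chosen by name from the count table, with the shBrca2 to shControl difference of Gsn in these same libraries already known. All 8 were among the 12771 genes of the table, and 7 of them passed the minimum mean of 5 normalized counts that a call of a difference needed.

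Gelsolin, the product of Gsn, severs a filament in the presence of calcium, stays on the new end as a cap, and is taken off again by membrane phosphoinositides. A second, secreted form is made from the same gene and clears actin from plasma. Fibroblasts are known as a rich source of gelsolin, and fibroblasts that lack it form thick stress fibers and move slowly. The relatives divide the same work: CapG caps without severing, villin and advillin sever, cap and bundle in epithelial or sensory cells, adseverin (Scin) cuts the cortical actin of secretory cells, and supervillin and flightless-1 carry gelsolin-like repeats joined to other domains.

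KPC cells, which are a line from mouse pancreatic cancer, formed the tumors after injection into the pancreas of C57BL/6 male mice (C57BL/6 J in the study's methods) that were 8 weeks old. The cells of 1 group carried a short hairpin RNA that silences Brca2, a gene of homologous recombination repair (shBrca2), and those of the other carried a hairpin with no target (shControl), both delivered by lentivirus with puromycin selection. Tumors were taken between 2 and 3 weeks later, and live cells positive for podoplanin and negative for CD45, CD31 and EpCAM were sorted. Poly(A) RNA was read at the 3′ end of transcripts by a variant of MARS-seq, in 3 libraries of shControl, numbered 1, 2 and 4, and 4 of shBrca2, numbered 1 to 4. Only the cancer cells carried a hairpin, so the Brca2 level of the sorted fibroblasts does not check the labels. The libraries came from 3 mice with shControl tumors and 4 mice with shBrca2 tumors.

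Totals ran from 1898679 counts in shBrca2 replicate 3 to 5990579 in shBrca2 replicate 2. By the mean chi-square per gene between libraries, shControl replicate 2 lay 15.4 and 15.5 from the other shControl libraries and between 13.2 and 17.5 from the shBrca2 libraries, so it stood apart from its own group. The deepest library, shBrca2 replicate 2, lay 11.5 to 12.2 from its own group, whose other pairs lay at 3.16 to 7.47. This measure uses raw counts and grows with depth. The differences of Gsn and Vil1 without shControl replicate 2 are given beside their values, as are the calls among other actin regulators. The sort was checked on fibroblast genes: Col1a1, Col1a2, Col3a1, Pdgfra, Pdpn, Dcn, Lum and Thy1 all had raw counts of at least 176 in every library. Genes that mark other cells were also counted. Of the 8 epithelial markers in the table, 6 (Krt8, Krt18, Krt19, Krt7, Elf3 and Spint2) were called higher in shBrca2. Of 11 macrophage markers, 4 (Csf1r, C1qa, Cd14 and Fcgr3) were called higher and 7 were not called. Of those 7, Cd68 (-0.32), Lyz2 (-0.26) and Fcer1g (-0.11) went the other way. C1qa overlapped between groups, at 6 raw counts in each shControl library and 39, 28, 2 and 21 in shBrca2. How much RNA came from such cells was not tested.

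Gsn lies on chromosome 2 of GRCm38.p6 (chr2:35256359-35307902, plus strand) and has 3 promoters in RefSeq. They are printed because the counts cannot separate them: in the GENCODE vM39 annotation, 53 of the 58 protein-coding Gsn transcripts end within 100 bases of a common 3′ end, where the reads fall, so transcripts of the secreted and the cytoplasmic forms share 1 count. The promoter of Vill (chr9:119052729-119071525, plus strand) is shown beside them as that of the member that differed in the opposite direction. Each sequence runs 5′ to 3′ from 250 bases before to 50 bases after the annotated start on the plus strand, as given by RefSeq for GRCm38.p6, and capitals mark a GC box, GGGCGG on either strand.

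Gsn promoter 1, chr2:35256109-35256408: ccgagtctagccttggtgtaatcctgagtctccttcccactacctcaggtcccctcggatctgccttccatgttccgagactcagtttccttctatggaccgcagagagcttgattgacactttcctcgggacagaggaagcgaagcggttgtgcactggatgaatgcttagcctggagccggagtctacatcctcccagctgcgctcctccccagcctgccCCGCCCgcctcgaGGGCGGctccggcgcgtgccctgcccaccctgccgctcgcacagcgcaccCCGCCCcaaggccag
Gsn promoter 2, chr2:35266494-35266793: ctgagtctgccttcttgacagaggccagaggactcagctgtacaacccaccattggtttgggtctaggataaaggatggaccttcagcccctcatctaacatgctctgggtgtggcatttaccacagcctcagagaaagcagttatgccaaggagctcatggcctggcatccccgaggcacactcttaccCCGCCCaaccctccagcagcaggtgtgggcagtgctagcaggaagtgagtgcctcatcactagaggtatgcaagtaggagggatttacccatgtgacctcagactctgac
Gsn promoter 3, chr2:35282130-35282429: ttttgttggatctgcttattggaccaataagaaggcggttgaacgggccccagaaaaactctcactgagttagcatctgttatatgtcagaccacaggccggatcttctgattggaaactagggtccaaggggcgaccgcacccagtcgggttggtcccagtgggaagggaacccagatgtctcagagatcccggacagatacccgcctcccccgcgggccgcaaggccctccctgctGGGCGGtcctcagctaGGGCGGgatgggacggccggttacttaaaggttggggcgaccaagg
Vill promoter, chr9:119052528-119052827: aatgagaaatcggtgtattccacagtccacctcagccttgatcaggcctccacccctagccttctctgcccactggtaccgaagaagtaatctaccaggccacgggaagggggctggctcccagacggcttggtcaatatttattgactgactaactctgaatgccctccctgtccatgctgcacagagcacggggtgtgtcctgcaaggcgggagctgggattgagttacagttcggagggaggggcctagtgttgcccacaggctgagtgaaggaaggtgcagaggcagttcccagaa

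All 3 Gsn promoters held a GC box, a sequence bound by Sp1-type factors, as did 35.7% of the 32851 mouse promoters of the same length. The first had 3 matches, at -28, -15 and +36 from the start, the second had 1, at -60, and the third had 2, at -12 and +5. Promoters 2 and 3 lie inside the span of the gene, downstream of the first start. The search on both strands also covered a heat shock element (GAANNTTC, in 7.86% of promoters), the hypoxia response core ACGTG (19.6%), an AP-1 site (TGANTCA, 7.81%), TATAAA (13.6%) and the CArG box bound by serum response factor (1.63%). None of these letters occurred in the Gsn or Vill windows, nor in those of Capg and Avil, which like Vill had no GC box either. Of the other members, Flii had 2 GC boxes and a hypoxia core at -163, Scin had 2 GC boxes, and Vil1 had 1 GC box and a CArG box at -73. The matches are letters in a window and show no binding.

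Gsn was the one member called lower in shBrca2 CAFs, and the groups did not overlap. In the order of their numbers, the shControl libraries gave 12285, 5174 and 8328 normalized counts of Gsn, and the shBrca2 libraries gave 1726, 2198, 2282 and 1920. The lowest shControl library stood 2.27-fold above the highest shBrca2 library. The means were 8596 ± 3563 (SD, n = 3) and 2031 ± 255 (SD, n = 4) normalized counts, so shBrca2 CAFs had 23.6% of the shControl level. On the log2 scale the difference was -2.08 with a standard error of 0.26 (95% interval -2.59 to -1.57), against a median absolute difference of 0.28 over all genes tested. These values are those for which the family was chosen, so the call and the interval are a description and no p is given. In bulk libraries, fewer cells that make Gsn and less Gsn RNA per cell cannot be told apart.

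**Figure D1:**
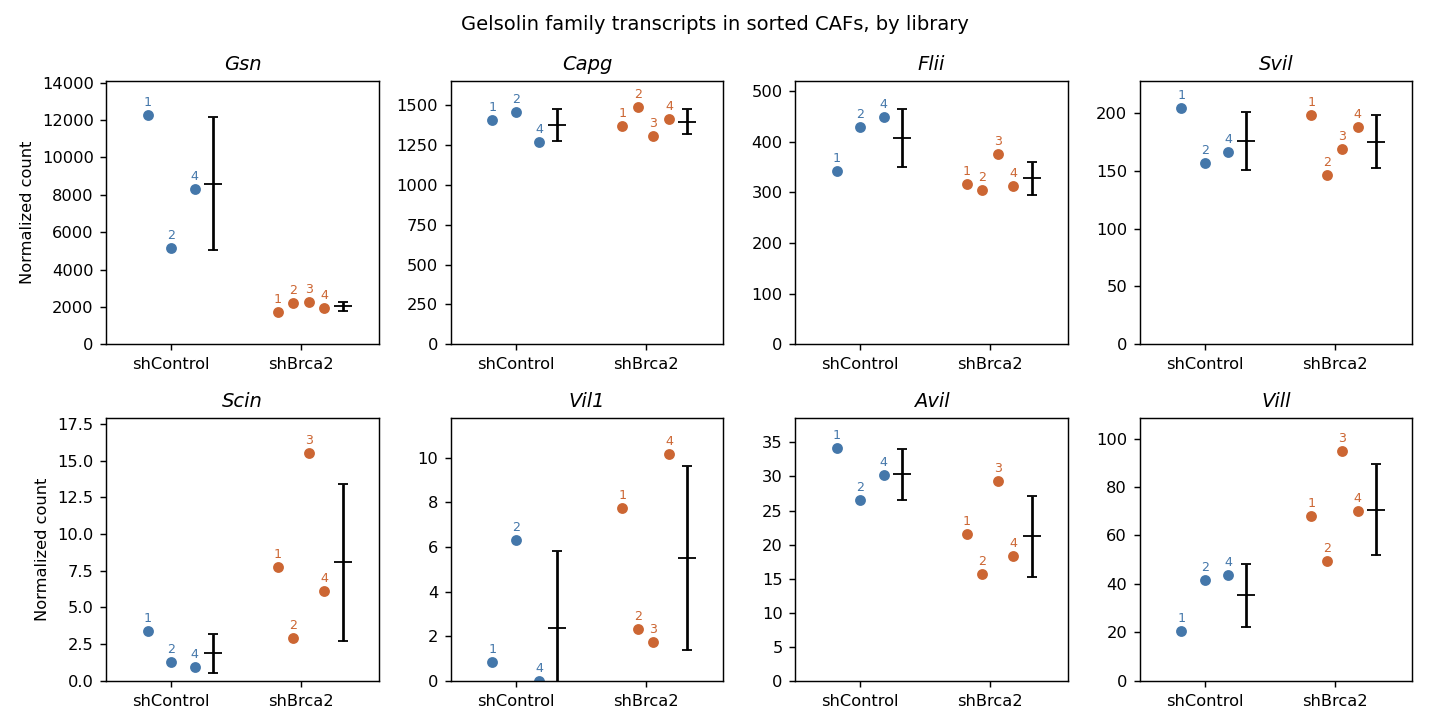
Normalized count (linear axis from 0) of each gelsolin family gene in 3 shControl libraries (blue) and 4 shBrca2 libraries (orange), each point marked with its replicate number, with the mean and SD of each group in black. The shControl values of Gsn span 5174 to 12285 while its shBrca2 values stay between 1726 and 2282. Capg and Svil overlap between groups. The lower end of the SD of Vil1 in shControl falls below 0 and is cut off.

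The spread of Gsn was as uneven as its level. In shControl the highest library was 2.37-fold above the lowest (CV 41.4%, above 94.1% of the 6735 genes with a mean over 50 normalized counts), whereas in shBrca2 the highest was 1.32-fold above the lowest (CV 12.6%, above 39.5% of those genes). Replicates 1 and 2 were the extremes. Without replicate 1, the highest, the difference was -1.74, and without replicate 2, the library that stood apart from its group, it was -2.35.

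In raw terms Gsn took 0.349% of all counts in shControl replicate 1 (95% Wilson interval 0.344 to 0.355%), 0.143% in replicate 2 (0.139 to 0.148%) and 0.236% in replicate 4 (0.232 to 0.242%). In shBrca2 the shares were 0.0545%, 0.0629%, 0.0696% and 0.0603% in replicates 1 to 4, and the widest interval was 0.0659 to 0.0734%, in replicate 3. The intervals cover counting error only. They are narrow beside the gaps between shControl libraries, but they treat each count as independent. Counts may include PCR copies, so the intervals may be too narrow. Any effect of depth on the Gsn value was not tested. No other annotated gene overlapped the last 500 bases of Gsn.

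Capg, which caps filaments without cutting them, had overlapping levels in the groups. It gave 1405, 1460 and 1269 normalized counts in shControl and 1373, 1492, 1306 and 1416 in shBrca2. The difference was 0.02 on the log2 scale (SE 0.13, 95% interval -0.23 to 0.28), and its sign turned to -0.02 without shBrca2 replicate 2 and to -0.04 without shControl replicate 4. The CV of Capg was 7.15% in shControl and 5.58% in shBrca2. Capg is also abundant in macrophages, and the summed macrophage markers ran from 369 to 432 normalized counts in shControl and from 634 to 672 in shBrca2. In shBrca2 the sum was carried mainly by Csf1r and Cd14, whereas in shControl Cd68 (mean 98.6) lay above Cd14 (mean 74.1). Cd68 differed by -0.32, Lyz2 by -0.26 and Fcer1g by -0.11, and these were not called. The part of macrophage RNA in the Capg value was not tested. Tyrobp and Mrc1 stayed below 10 normalized counts in every library, and Adgre1 was not analysed here.

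Svil encodes supervillin, a large membrane-bound relative that binds myosin II and actin. Its normalized counts were 204, 157 and 166 in shControl and 198, 146, 169 and 188 in shBrca2, and the difference was -0.01 (SE 0.20, 95% interval -0.40 to 0.38). The sign followed single libraries, reaching 0.11 without shControl replicate 1 and 0.07 without shBrca2 replicate 2.

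Flii encodes flightless-1, which joins gelsolin-like repeats to leucine-rich repeats and also acts in transcription. Flii read 342, 430 and 449 normalized counts in shControl and 317, 305, 377 and 313 in shBrca2, with means of 407 ± 57.5 (SD, n = 3) and 328 ± 32.9 (SD, n = 4). The difference was -0.32 (SE 0.17, 95% interval -0.65 to 0.02) and Flii was not called. The groups overlapped because shControl replicate 1 lay below shBrca2 replicate 3. The 3′ end of Flii lies across that of Llgl1 on the opposite strand, and whether counting used strand is not given in the sources used here. Reads of the 2 genes may therefore be mixed. Llgl1 itself differed by -0.02 (DESeq2 adjusted p = 0.96).

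Vill, the villin-like gene, was the one member called higher in shBrca2 CAFs. It had 20.5, 41.7 and 43.8 normalized counts in shControl and 68.0, 49.5, 94.99 and 70.1 in shBrca2. The groups did not overlap, but the lowest shBrca2 library was only 1.13-fold above the highest shControl library. The means were 35.3 ± 12.9 (SD, n = 3) and 70.7 ± 18.7 (SD, n = 4), a log2 difference of 0.99 (SE 0.34, 95% interval 0.33 to 1.65).

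The call of Vill depended on single libraries. It was lost without shControl replicate 1 (0.69), without shBrca2 replicate 3 (0.83), without shBrca2 replicate 1 (1.01) and without shBrca2 replicate 4 (0.99), and was kept in the other 3 fits that left out a library, where the difference was 1.12, 1.14 and 1.19. Raw Vill counts ran from 24 to 85 per library. The last 500 bases of Vill overlap Plcd1 on the opposite strand, and without strand their reads cannot be told apart. Plcd1 was at 134, 158 and 181 normalized counts in shControl and 131, 129, 257 and 124 in shBrca2, a log2 difference of 0.01 (SE 0.28, DESeq2 adjusted p = 0.96), and it was highest in shBrca2 replicate 3, as was Vill.

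Vil1, Scin and Avil were sparse. Avil, which encodes advillin, a protein of sensory neurons and tuft cells, had 34.2, 26.6 and 30.2 normalized counts in shControl and 21.5, 15.7, 29.4 and 18.3 in shBrca2. Its difference was -0.57 (SE 0.36, 95% interval -1.27 to 0.12), it was not called, and the groups overlapped through shBrca2 replicate 3. Scin gave 4, 1 and 1 raw counts in shControl and 9, 5, 9 and 6 in shBrca2. The log2 difference was 1.95 (SE 0.91, 95% interval 0.17 to 3.73), and Scin was not called. After normalization its groups overlapped, at 3.42 in shControl replicate 1 against 2.91 in shBrca2 replicate 2.

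Vil1, the villin of intestinal and other brush borders, gave 1, 5 and 0 raw counts in shControl and 9, 4, 1 and 10 in shBrca2. In shControl replicate 4, where it was listed at 0, the 3 counts that a 0 allows equal 2.92 normalized counts. Its mean of 4.16 was under the minimum of 5, so it could not be called. The log2 difference of 1.33 (SE 1.06) ranged from 0.72 to 3.62 when single libraries were left out, with 3.62 without shControl replicate 2. No difference was detectable at this depth. Vil1 also overlaps Usp37 on the opposite strand at its 3′ end.

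Counted together, 1 of the 8 members was called lower and 1 higher, beside 5.27% of all genes called lower, 3.77% called higher and 9.04% called in either direction. Both called members, and no other, had groups that did not overlap, as had 17.1% of all genes. The other 6 were not called, and for 5 of the 8 the 95% interval of the difference spanned 0. Since the family was chosen from this contrast, nothing is read from these counts.

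**Figure D2:**
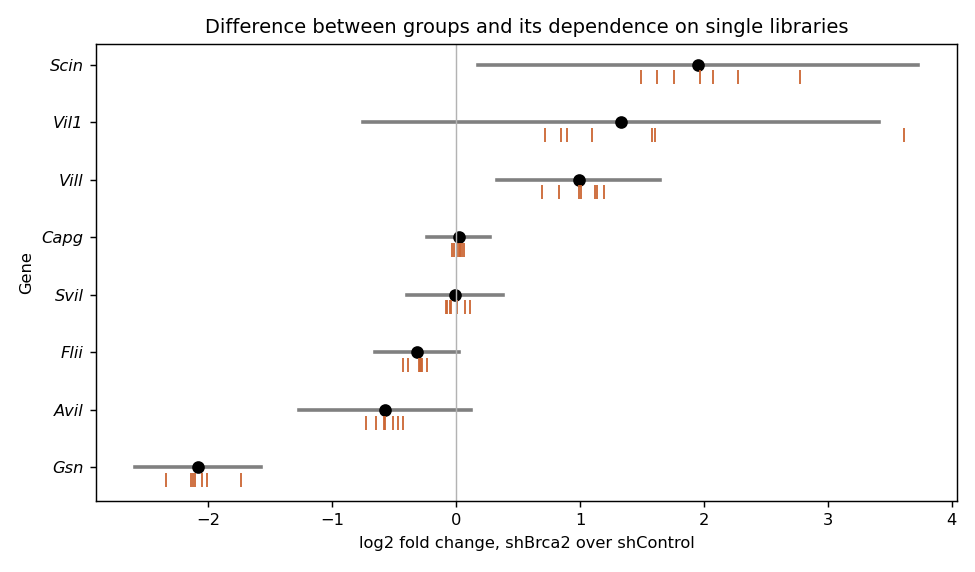
Log2 fold change of each member, shBrca2 over shControl (black points, 7 libraries), with its 95% interval (grey bars), and the value after leaving out each library in turn (orange ticks). Gsn stays between -2.35 and -1.74 in every case, Capg and Svil lie on both sides of 0, and Vil1 spreads from 0.72 to 3.62.

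Markers of cells in which the sparse members are known were read beside them. The 8 epithelial markers in the table summed to between 401 and 1185 normalized counts in shControl and between 1506 and 2127 in shBrca2, and their median log2 difference was 1.37. The lowest sum and the lowest Vill value were both in shControl replicate 1, but the highest sum was in shBrca2 replicate 4 and the highest Vill value in shBrca2 replicate 3, whose sum was 1668. Epcam and Cldn4 were not analysed here, and Cldn7 reached at most 7.75 normalized counts. The epithelial sum was carried mainly by Krt8, Krt18, Krt19 and Krt7, while Cdh1 and Elf3 had means of 8.26 and 6.13 normalized counts. Krt19 is in the mesothelial list too. That list summed to 1006, 1657 and 3418 normalized counts in shControl and to between 2599 and 3295 in shBrca2. The part of epithelial or mesothelial RNA in the Vill, Scin and Vil1 values was not tested. For tuft cells, 5 of 8 markers were in the table, of which Ptgs1 was called higher and Sh2d6 lower. Pou2f3, Trpm5 and Il25 were not analysed here, and the part of tuft cells in the Avil value was not tested.

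Adventitial fibroblast markers differed in the same direction as Gsn. Of 9, 8 were called lower in shBrca2 (Dpt, Pi16, Cd34, Ly6a, Ly6c1, Dpp4, Clec3b and Cd248) and Col15a1 was not, with a list median of -1.73 against 0.01 over all genes. The sum of the 9 ran from 26702 to 40693 normalized counts in shControl and from 10117 to 18547 in shBrca2. Of the 8 general fibroblast genes, Dcn and Lum were called lower, while Pdgfra, at 0.01 (SE 0.15), Thy1, at -0.09 (SE 0.23), and Pdpn, at -0.25 (SE 0.15), were not called. This list was written with earlier results of these libraries known and is no independent evidence. The part of a change in fibroblast makeup in the Gsn value was not tested. Of the remaining marker lists, 2 of 7 pericyte genes and 1 of 7 mesothelial genes were called higher, no endothelial gene of 4 was called, and of 9 acinar genes 1 was called higher and 4 lower.

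The genes whose levels followed Gsn most closely were found by Pearson's r of log2(normalized count + 1) over the 7 libraries, among the 6735 genes with a mean over 50. The top 10 were Ebf1, Akap12, Ccn3, Kif13b, Rgl1, Pi16, Itga11, Cd248, Daam1 and Gpc3, with r from 0.98 to 0.99, and all 10 were called lower. Because the groups lie far apart in Gsn, these r values mostly repeat the difference between groups. Ebf1, an early B cell factor found in mesenchymal cells, stood at 154, 93.6 and 115 normalized counts in shControl and 54.2, 65.9, 63.9 and 54.9 in shBrca2, and so had the same order of libraries as Gsn within shControl.

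The likeness was read again on deviations from the group means, which leaves the group difference out. The closest 10 were then Slc38a2, Parp2, Mcee, Akap12, Ago1, Spcs1, Ebf1, Fopnl, Gdap2 and Eif1 (r from 0.97 to 0.99), so Akap12, a scaffold of protein kinase A, and Ebf1 stood in both lists. Pdgfra, whose difference between groups was 0.01, reached r = 0.92 by deviations, Cd34 0.88, Pi16 0.87, Clec3b 0.87 and Cd248 0.83. The other markers with a mean over 50 that were read this way were lower, with Dpt at 0.62, Ly6a at 0.52, Ly6c1 at 0.45 and Pdpn at 0.37, or ran the other way, with Thy1 at -0.41 and Col15a1 at -0.79. Each r rests on 7 libraries of unequal depth, in which both genes were read from the same RNA, with shControl replicates 1 and 2 as the extremes of Gsn. The 10 closest genes by either measure were also picked as the highest r among 6735 genes, and high r can arise from that choice alone.

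**Figure D3:**
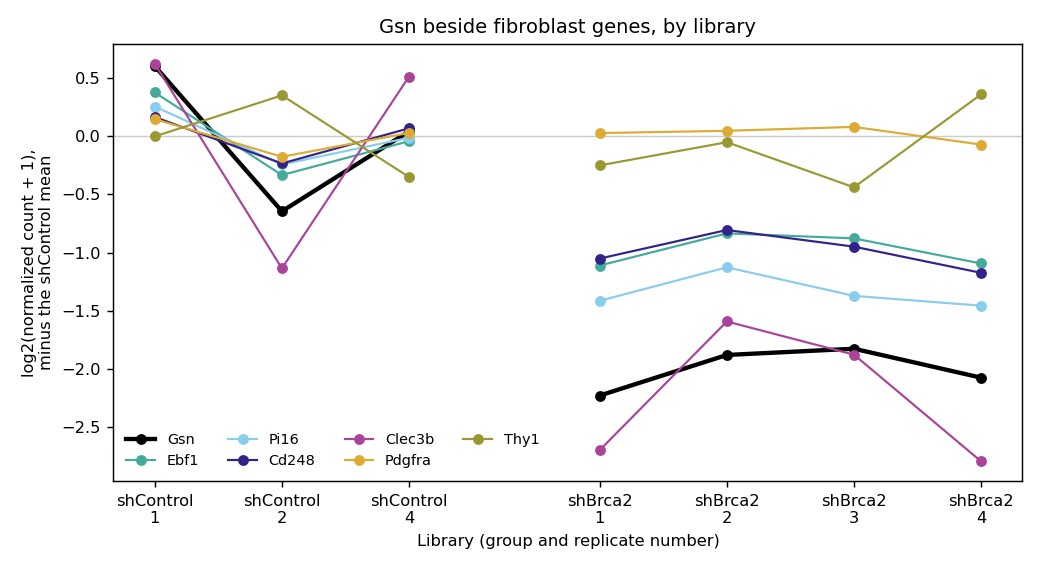
Level of Gsn and 6 fibroblast genes in each library, as log2(normalized count + 1) minus the mean of the shControl libraries; lines join the points of 1 gene and carry no order. Gsn, Clec3b, Ebf1, Pi16 and Cd248 dip in shControl replicate 2 and lie low in all 4 shBrca2 libraries. Pdgfra also dips in shControl replicate 2, to 549 normalized counts, whereas Thy1 is highest within shControl in that library, at 3781. In shBrca2 both Pdgfra and Thy1 lie on either side of the shControl mean.

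The other members were less like Gsn. By deviations from the group means, r with Gsn was -0.23 for Capg, -0.44 for Flii, 0.35 for Svil and -0.57 for Vill. Flii and Vill had r = 0.95 with each other by deviations but -0.15 over the 7 libraries. Both were highest among shBrca2 libraries in replicate 3, the shallowest, as were Gsn, Avil and Scin, which makes 5 of the 8 members. Avil and Scin had only 17 and 9 raw counts in that library. The share of all genes highest in it was not counted, so nothing is read from the 5.

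Genes most like the other members differed from those of Gsn. Each list was picked as the highest r among 6735 genes over 7 libraries. High r can arise from that choice alone, so nothing is read from the lists or from their differences. Over the 7 libraries the top 5 were Pofut2, Ssr4, Fndc10, Sra1 and Smurf1 for Capg (r from 0.96 to 0.98), Pip4k2c, Sppl2b, Mfsd12, Yy1 and Pigq for Flii (0.96 to 0.99), Rbm26, Cdc5l, Gabpa, Ube4a and C1qtnf3 for Svil (0.91 to 0.97), and Prkab1, Ndrg2, Abcb1a, Itga7 and Txnl4a for Vill (0.98 to 0.99). By deviations they were Ostf1, Cav3, Atf7, Ubb and Pofut2 for Capg, Abcb1a, Evc2, Adgrb2 and Glb1 (the first 4) for Flii, Ube4a, Hacd3, Rbm26, Ncoa6 and Rfc1 for Svil, and Efnb1, Ptprv, Ndst1, Mybbp1a and Irf2bpl for Vill. Pofut2 for Capg and Rbm26 and Ube4a for Svil were common to both measures. Capg (0.02) and Svil (-0.01) hardly differed between groups, so for them the measures are nearly the same and the recurrence adds no evidence.

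Gelsolin acts on the same filaments as many other proteins, and 117 of their genes outside the family were read from 12 lists, of which 110 were in the table. In this wider set, with all 7 libraries, 9 genes were called (8.18%, 7 higher and 2 lower), close to the 9.04% of all genes. The median log2 difference of the set was 0.14 against 0.01. Among the 79 of them with a mean over 50 normalized counts, the lowest value was -0.80, in Daam1. Over all 110 it was -1.70, in the sparse Tmod2 (mean 8.02 normalized counts), which was not called. None lay as low as Gsn, but the family was chosen for the Gsn difference in these libraries, so nothing is read from this.

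**Figure D4:**
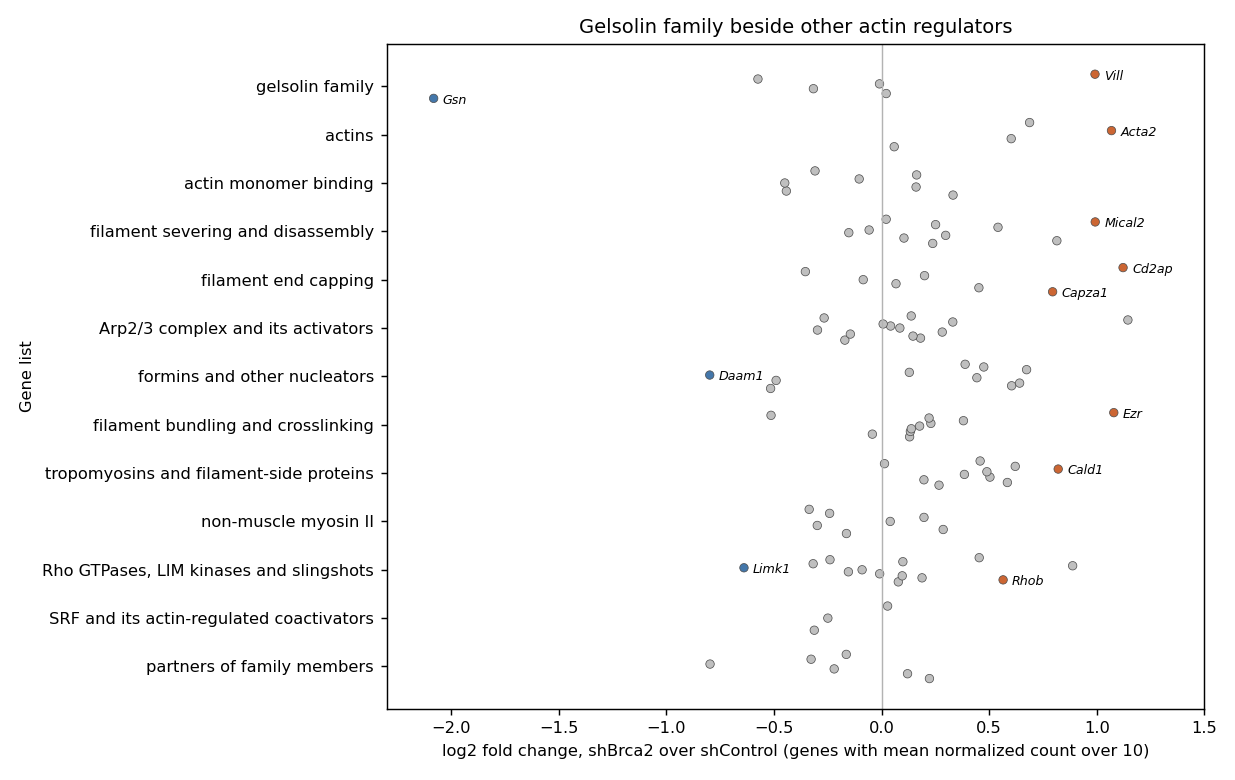
Log2 fold change, shBrca2 over shControl, of gelsolin family genes (top row) and of 12 lists of other actin regulators, for genes with a mean over 10 normalized counts. Orange points were called higher, blue points lower and grey points were not called. Gsn lies at -2.08, apart from every other point shown, and is the gene for whose difference in these libraries the family was chosen.

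Among genes that share the severing and disassembly role of gelsolin, none of the 11 in the table was called lower. Mical2, an enzyme that oxidizes actin and so breaks filaments down, was called higher, at 340, 695 and 341 normalized counts in shControl and 1050, 939, 717 and 933 in shBrca2 (log2 difference 0.99, SE 0.27, DESeq2 adjusted p = 0.0076). Cfl1, the cofilin of non-muscle cells, and Dstn, its relative destrin, differed by 0.24 and 0.10 and were not called. The end-capping genes, the other role of gelsolin, gave 2 calls of 9, both higher. Cd2ap, an adaptor that binds capping protein, rose by 1.12 (SE 0.31, adjusted p = 0.0098) but lost its call without shControl replicate 1 (0.97), and Capza1, a capping protein subunit, by 0.79 (SE 0.30, adjusted p = 0.086), although Capza1 overlapped between groups and was called in 6 of 12 alternative fits.

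Of the 5 genes for actin itself, 1 was called. Acta2, the smooth muscle actin, rose by 1.07 (SE 0.32, DESeq2 adjusted p = 0.018), whereas Actb differed by 0.06 and was not called. The last 500 bases of Acta2 overlap Stambpl1 on the opposite strand, so its counts are uncertain. Stambpl1 differed by -0.09 (SE 0.36) and was not called. The call of Acta2 was lost without shControl replicate 4 (0.76) and without shBrca2 replicate 4 (0.99). Of the proteins that lie along or between filaments, Cald1 (caldesmon) rose by 0.82 (adjusted p = 0.034, and 0.58 with its call lost without shControl replicate 4) and Ezr (ezrin, which ties actin to the membrane and is also abundant in epithelia) by 1.08 (adjusted p = 0.0077), while the other 9 tropomyosin and calponin genes and the other 10 bundling genes were not called.

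Upstream of the filaments the calls went both ways. The formin gene Daam1 fell by 0.80 (SE 0.24, DESeq2 adjusted p = 0.018) and was the 1 call among 14 nucleators. The kinase gene Limk1, whose product inactivates cofilin, fell by 0.64 (SE 0.20, adjusted p = 0.021), and Rhob, a small GTPase, rose by 0.56 (SE 0.14, adjusted p = 0.0023). The call of Daam1 was lost in 5 of 12 alternative fits, that of Limk1 in 4 and that of Rhob in 2. No gene was called among 8 monomer-binding genes (Tmsb4x 0.16), 13 Arp2/3 genes (Arpc1b -0.15), 7 myosin II genes (Myl12a 0.20), 3 serum response factor genes (Mrtfa -0.25) and 6 partners of family members (Fn1, the fibronectin that plasma gelsolin binds, -0.33). Without shControl replicate 2, 17 genes of the 110 were called higher and 1 lower, beside 610 higher and 695 lower of all 12771 genes. In that fit the share called higher was larger in the set than over all genes, so the closeness of the shares depended on this library. Without shControl replicate 4 only 4 of the set were called higher and 2 lower, beside 386 and 418 of all genes.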

How the data were processed

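RNA from CAFs of 3 shControl and 4 shBrca2 libraries was measured at the 3′ end. The authors deposited 1 table of raw counts per gene symbol, which are whole numbers and not normalized. The submitters' processing notes name bcl2fastq, cutadapt, STAR 2.4.2a, HTSeq, DESeq2 and mm10. Annotation, strand setting and collapsing of molecular barcodes are not given in the sources used here, so counts may include PCR copies. Groups came from the Brca2 status in the labels.

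Counts of all 12771 genes were fitted in DESeq2 1.42.0 (R 4.3.3) by its likelihood ratio test for the group, as in the study's methods, after scaling by its median-of-ratios size factors. A gene was called at a Benjamini-Hochberg adjusted p under 0.1, an absolute log2 fold change over 0.5 and a mean normalized count over 5. Fold changes are shBrca2 over shControl, not shrunken. A total of 12768 genes had a p. Likeness used a pseudocount of 1. The fit was tested on simulated counts.

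Alternatives were TMM scaling, a filter of 10 counts in 3 libraries, edgeR 4.0.16 (quasi-likelihood), the Wald test, a replicate block and leaving out each library. The members, the actin lists and the marker lists were chosen with earlier results of these data known. Named genes were all members, up to 4 called genes of each actin list by size of the difference (or, with none called, the most abundant), the genes most like each member (10 for Gsn, 5 for others), and list members where a list is described. One gene that this rule names is not reported here. Other genes were named after their values were seen: Actb, Cfl1, Dstn, Tmod2 and the genes across the 3′ ends. Of the 117 actin regulators, Actc1, Gmfg, Lmod1, Was, Pls1, Myh14 and Myocd were not analysed here. Promoters and gene positions were taken from RefSeq (GRCm38.p6, the mm10 assembly) by symbol, matched for all 8 members; the sequence of Svil is not shown. Transcript 3′ ends came from GENCODE vM39 and were used as counts only.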

Additional observations from a re-analysis of the deposited data

Results flagged for a closer look

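Among the 22 members and named actin genes, 2 had a library far from the other 3 of the shBrca2 group, where chance flags about 1 in 20 groups. Flii reached 377 normalized counts in shBrca2 replicate 3, against 305 to 317 in the others. Tmsb4x stood at 8129 normalized counts in shBrca2 replicate 4, against 10541 to 10900. The 3 shControl libraries were too few for this check.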

How the results depend on the processing

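The Gsn difference, for which the family was chosen, lay between -2.35 and -1.74 on the log2 scale over the alternatives. Replicate numbers did not pair the libraries: deviations of same-numbered libraries correlated at -0.13, -0.17 and -0.18. With a replicate block on replicates 1, 2 and 4, 242 genes were called higher and 322 lower, against 481 and 673, 0 members were called higher, 0 actin regulators were called lower, and the Svil difference was 0.0090. Without single libraries, genes called higher ranged from 261 to 610 and lower from 354 to 695, members called higher from 0 to 1, and actin regulators called higher from 4 to 17 and lower from 0 to 3. Of 94 values of members under the alternatives, 6 changed sign, all of them of Capg (-0.02 without shBrca2 replicate 2, -0.036 without shControl replicate 4, the range without single libraries being -0.036 to 0.062) or Svil (under the block, and 0.11 without shControl replicate 1, 0.072 without shBrca2 replicate 2 and 0.0037 without shBrca2 replicate 3, in a range of -0.084 to 0.11). Another 5 lost a call, all of Vill, 1 of them under the block (0.87). The cause was not tested, though fewer libraries entered each of these fits. TMM scaling, the low-count filter, edgeR and the Wald test changed no call of a member, and the filter left Scin and Vil1 out. Counts of 10 or fewer limited Scin and Vil1.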
